A study of Mus musculus and Homo sapiens with 8 samples.

Results

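Heat shock proteins and chaperonins are the proteins that fold, hold and refold other proteins. The genes described here are those whose name on the arrays starts with HSPA, HSPB, HSPD, HSPE, HSPH, HSP90, DNAJA, DNAJB or DNAJC, or is CCT with a number or TCP1, and whose detection p was under 0.01 on at least 1 array of the species. In mouse thymus 45 of the 30854 rows met this rule, and in the human line H1299 60 of 34694 gene names did, with 83 probes. The 2 sets hold 70 different genes, 35 of them in both. In mouse 75 rows carried such a name, and the 30 others did not reach the detection limit on any array. The members nearest to the limit were Hspa1b, with a lowest detection p of 0.00781, and Dnajc18 and Cct6b with 0.00641, and the nearest rows outside it were Dnajb4 with 0.0103, Dnajc14 with 0.0107 and Dnaja2 with 0.0115.

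RNA was measured on 8 Illumina bead arrays. Thymus RNA came from CD-1 mice aged 2.5 weeks: 1 array of wild type without irradiation, 2 arrays of wild type and 2 arrays labelled TRAF6 null, both of the latter groups with 15 Gy and 10 h given as the treatment. There was no unirradiated TRAF6 null array. The H1299 cells, a lung cancer line that lacks p53, had been transfected with an empty vector, with p53 wild type or with p53 K24R, in which a lysine near the N-terminus is replaced by arginine, on 1 array each. Whether the arrays of a group are separate animals is not stated. The p-values therefore reflect only how far these samples spread, which may be technical. The time after transfection is not stated either. TRAF6 is a ubiquitin ligase of Toll-like and TNF family receptor signalling, and p53 is the transcription factor that answers DNA damage.

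HSP70 proteins (HSPA) bind short exposed stretches of unfolded protein in cycles driven by ATP. J proteins (DNAJ) bring them their clients, HSP110 proteins (HSPA4, HSPA4L, HSPH1) recharge them with nucleotide, HSP90 takes over late steps of folding, and small heat shock proteins (HSPB) hold unfolded protein without ATP. Chaperonins are barrels that enclose the client: TRiC in the cytosol, made of TCP1 and the CCT subunits, folds actin and tubulin, and HSPD1 with its lid HSPE1 does the same work in mitochondria. The factor HSF1 induces many of these genes through the heat shock element, and the endoplasmic reticulum (ER) members answer to the unfolded protein response through the ER stress element.

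Promoter windows of the mouse members were read from RefSeq (GRCm38.p6), from 250 bases before to 50 bases after the gene's start, and 38 of the 45 members had one. The heat shock element was searched as GAANNTTC or TTCNNGAA, each of which reads the same on both strands, and was found in 15.1% of all 32851 windows and in windows of 11 member genes: Cct2, Cct5, Cct6a, Dnajb6, Dnajc27, Hspa1a, Hspa1b, Hspb6, Hspb8, Hspd1 and Hspe1. Genes can have several windows, and of the 48 member windows 12 held it (25%). A longer form, in which 1 more unit follows after another 2 bases, was found in 0.603% of all windows. It was in 4 member windows (8.33%), of 3 genes, Dnajb6, Hspd1 and Hspe1. The windows of Dnajb6 overlap and hold the same element, and those of Hspd1 and Hspe1 share theirs. The share of member windows thus counts each of these sites more than once. Every window with the longer form also holds the shorter one. The ER stress element, CCAAT and CCACG with 9 bases between them, on either strand, was found in 0.119% of all windows. It was in 2 member windows (4.17%), those of Hspa5 and Hsp90b1. A p53 half-site, 10 bases long, was searched too and was in 8.36% of all windows and 8.33% of member windows. A match describes the letters only. The windows below belong to genes whose values are followed through the results, and capitals mark the element named with each.
Hspe1 promoter, chr1:55087898-55088197, plus strand, heat shock element, longer form, shared with Hspd1: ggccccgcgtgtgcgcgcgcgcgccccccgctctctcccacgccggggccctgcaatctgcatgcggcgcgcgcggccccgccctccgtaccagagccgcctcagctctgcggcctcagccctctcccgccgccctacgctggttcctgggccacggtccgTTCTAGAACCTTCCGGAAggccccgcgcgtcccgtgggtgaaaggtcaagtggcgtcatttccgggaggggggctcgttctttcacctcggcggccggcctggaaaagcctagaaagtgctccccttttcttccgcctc
Dnajb6 promoter, chr5:29735648-29735947, plus strand, heat shock element, longer form: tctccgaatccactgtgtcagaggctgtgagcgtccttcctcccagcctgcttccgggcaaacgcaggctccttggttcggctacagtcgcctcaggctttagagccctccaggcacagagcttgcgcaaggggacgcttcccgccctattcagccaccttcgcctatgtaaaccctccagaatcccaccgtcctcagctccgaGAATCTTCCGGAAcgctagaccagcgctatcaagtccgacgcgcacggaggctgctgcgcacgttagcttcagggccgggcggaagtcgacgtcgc
Hspa1a promoter, chr17:34972107-34972406, minus strand, heat shock element: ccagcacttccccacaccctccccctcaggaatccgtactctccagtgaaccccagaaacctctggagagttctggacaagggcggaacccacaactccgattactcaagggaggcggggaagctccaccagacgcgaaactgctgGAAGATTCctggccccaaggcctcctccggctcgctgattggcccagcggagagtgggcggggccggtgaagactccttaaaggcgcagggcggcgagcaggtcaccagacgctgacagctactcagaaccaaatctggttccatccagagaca
Hspb8 promoter, chr5:116422815-116423114, minus strand, heat shock element: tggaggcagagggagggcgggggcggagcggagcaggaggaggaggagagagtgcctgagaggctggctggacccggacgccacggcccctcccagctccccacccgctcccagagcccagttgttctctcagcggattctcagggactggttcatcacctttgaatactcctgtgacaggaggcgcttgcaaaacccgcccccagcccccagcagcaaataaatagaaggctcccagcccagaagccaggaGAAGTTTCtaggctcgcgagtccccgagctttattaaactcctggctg
Hsp90b1 promoter, chr10:86705395-86705694, minus strand, ER stress element: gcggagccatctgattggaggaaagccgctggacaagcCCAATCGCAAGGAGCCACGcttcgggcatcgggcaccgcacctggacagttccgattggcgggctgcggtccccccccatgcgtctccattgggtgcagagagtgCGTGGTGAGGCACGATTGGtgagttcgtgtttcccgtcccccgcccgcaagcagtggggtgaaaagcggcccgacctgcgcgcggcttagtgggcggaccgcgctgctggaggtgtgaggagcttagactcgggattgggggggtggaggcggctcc
The Hspe1 and Hspd1 genes lie head to head: their windows, chr1:55087898-55088197 on the plus strand and chr1:55087883-55088182 on the minus strand, share 285 of 300 bases, so the printed window serves both. The overlapping elements in it lie 89 to 79 bases before the start of Hspe1. The element lies 46 bases before the start of Dnajb6, 104 bases before that of Hspa1a and 2 bases after that of Hspb8, and the ER stress elements lie 212 and 107 bases before that of Hsp90b1.

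The deposited signals, mean bead intensities, were corrected for background, quantile-normalized and taken to log2, and mouse differences were tested with limma over the 11563 rows detected on at least 2 of the 5 arrays, 38 members among them. A call is an adjusted p under 0.05 (Benjamini-Hochberg). Of the 45 mouse members, 31 were detected in all 3 groups, and 7 that were detected on a single array were not tested: Cct6b, Cct7, Dnajc6, Dnajc8, Dnajc18, Dnajc28 and Hspa1b. Hspa1a and Dnajc19 passed this filter through the irradiated groups alone, and Hspa12b and Hspa4l through irradiated wild type alone. Across rows, the irradiated wild-type pair correlated at 0.988, the TRAF6 null pair at 0.971, and arrays of different groups at 0.865 to 0.886. Traf6 itself gave a signal of 371.5 without irradiation, then 327.3 and 314.6 (wild type, irradiated), and 537.4 and 449.4 (TRAF6 null by label). It was thus 2.19-fold higher where the label says that it is lost (limma adjusted p = 0.0122), and where its probe lies relative to the deletion is not given, so each direction below is that of arrays so labelled.

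Irradiated wild type was first compared with the unirradiated array. The chaperonins of the cytosol and of mitochondria and the HSP90 gene Hsp90aa1 were lower in irradiated wild type, and the small heat shock genes Hspb8 and Hspb6 and the J protein gene Dnajb2 were higher. Of the 38 members tested, 5 rose (13.2%) and 9 fell (23.7%), beside 18.6% and 17.5% of all rows. The median log2 difference of members was -0.03 and that of all rows 0.05, and in the authors' matrix these turned to 0.18 and 0.26. Hspa12b is among the rises, but it passed the filter on dim rows through irradiated wild type alone, the group where it is high. Without replicate 1 or replicate 2 of irradiated wild type none of the 11563 rows passed, so that this removal says nothing of the members in particular (10 and 10 of them had an unadjusted p under 0.05). Without replicate 1 or 2 of the TRAF6 null arrays 24 and 24 members passed. Of the 14 calls, 8 were lost under no other alternative than the removal of one of these wild-type arrays, namely Dnajb2, Dnajc16, Dnajc19, Hsp90aa1, Hspb8, Hspd1, Hspe1 and Tcp1.

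TRiC subunits were lower in irradiated wild type in all 7 rows tested, by log2 differences of -0.56 to -1.26, and 4 of them fell: Tcp1, Cct2, Cct5 and Cct6a. The sign was the same under median scaling and in the authors' matrix. Both irradiated wild-type arrays were below the unirradiated array for all 7, as for 43.9% of all rows. Tcp1 gave signals of 2986.8 without irradiation, 1223.7 and 1156.5 in irradiated wild type, and 1801.4 and 1814.3 with TRAF6 null. The unirradiated array is the highest, the irradiated wild-type arrays are the lowest, and the groups do not overlap. Tcp1 fell by 1.23 ± 0.18 (SE) on the log2 scale in irradiated wild type (adjusted p = 0.0112).

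Cct6a gave 4952.9, then 2520.9 and 2187.9 in irradiated wild type, and 2568.4 and 3017.1 with TRAF6 null, a log2 difference of -0.84 ± 0.20 SE after irradiation of wild type (adjusted p = 0.0296). Cct4 and Cct8, at 8606.3 and 5938.3 without irradiation, lay at 4893.2 and 4567.3 and at 3119.1 and 3187.0 in irradiated wild type, and neither passed in this comparison. Cct3, at 2331.9, lay at 1516.2 and 1428.6 and did not pass. All 4 irradiated arrays were below the unirradiated array for each of these subunits, as for 28.1% of all rows. Cct5 and Cct2 sit close to background, at 244.8 and 163.1 without irradiation against 162.4 and 165.4, and 142.8 and 139.9, in irradiated wild type, and their size depends on the background step: the log2 difference of Cct5 ranged from -1.37 to -0.18 and that of Cct2 from -0.74 to -0.02 over the alternatives. Cct5 lost its call in the authors' matrix, and Cct2 lost its call under each change of background, offset or scaling.

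The genes of the mitochondrial chaperonin and its lid both fell in irradiated wild type. Hspd1 gave 2818.0 on the unirradiated array and 1370.3 and 1319.3 in irradiated wild type, and fell by 0.95 ± 0.18 (SE, log2, adjusted p = 0.0191). Hspe1, its lid, gave 1306.9, then 651.4 and 606.6, and fell by 1.15 ± 0.22 (SE, log2, adjusted p = 0.0189). With TRAF6 null, Hspd1 stood at 1020.6 and 1168.6, below both irradiated wild-type arrays, and Hspe1 at 726.7 and 976.8, above them; the difference between these genes was not tested. These are the genes that share the promoter window printed above.

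Hsp90aa1, the stress-inducible cytosolic HSP90, gave 947.2 without irradiation, 496.2 and 421.1 in irradiated wild type, and 329.5 and 442.9 with TRAF6 null. It fell by 1.25 ± 0.25 (SE, log2, adjusted p = 0.01999) in wild type, and all 4 irradiated arrays lie below the unirradiated array. Its constitutive partner Hsp90ab1 gave 1494.3, then 2006.7 and 1938.4, and 1655.8 and 2231.8, with no call (log2 difference 0.60, adjusted p = 0.0858 in wild type). The HSP90 of the ER, Hsp90b1, gave 5268.9, then 6238.1 and 5258.0, and 3174.8 and 3519.1. It had no call in irradiated wild type (log2 difference 0.43, adjusted p = 0.141).

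Of the members tested, Hspb8 rose most. Hspb8, whose protein works with the co-chaperone BAG3 to pass misfolded clients to autophagy, gave 1027.1 without irradiation, 4330.7 and 3184.5 in irradiated wild type, and 2026.1 and 3122.7 with TRAF6 null. It rose 4.60-fold in irradiated wild type (log2 difference 2.20 ± 0.30 SE, adjusted p = 0.00961), and every irradiated array is above the unirradiated one. Hspb6, a small heat shock protein known from muscle, gave 347.2, then 587.4 and 572.4, and 625.4 and 807.4, and rose by 0.83 ± 0.22 (SE, log2, adjusted p = 0.0384), a call lost with neqc's own estimate of the background (0.47). Markers of muscle stood beside it: 2 of 4 rose in the same comparison, and their summed signal was 1121.4 without irradiation and 2084.1 and 1397.2 with it. The part of muscle RNA in the result was not tested.

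**Figure D1:**
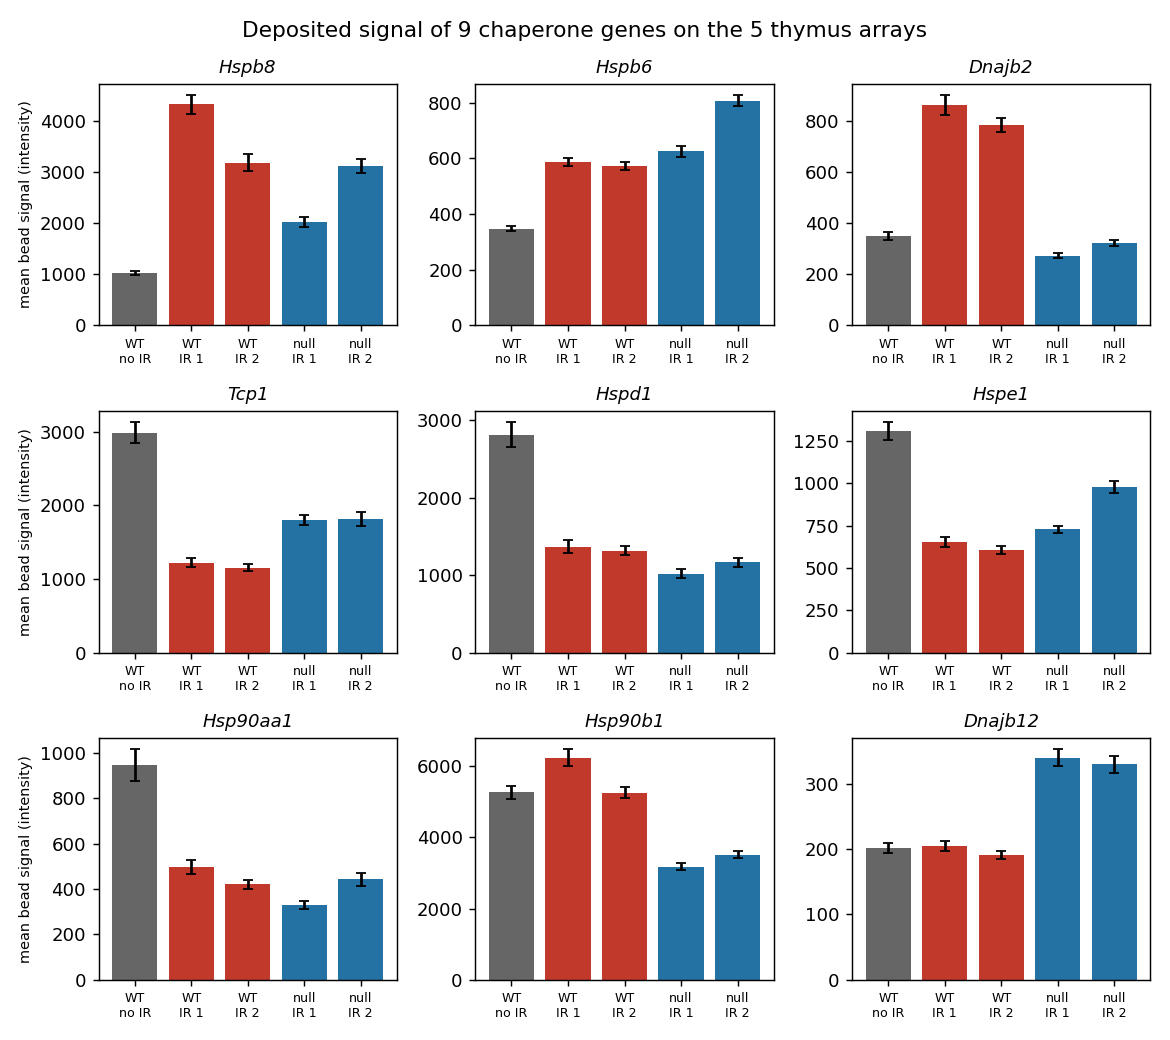
Deposited mean bead signal (intensity, linear, from 0) of 9 genes on the 5 thymus arrays, 1 bar per array: unirradiated wild type (grey), irradiated wild type (red) and irradiated TRAF6 null (blue); error bars are bead standard errors within the array. Hspb8 goes from 1027.1 to 4330.7 and 3184.5 in irradiated wild type, Tcp1, Hspd1, Hspe1 and Hsp90aa1 are below the unirradiated array on all irradiated arrays, and Dnajb2 is high in irradiated wild type alone.

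The HSP70 genes detected in all groups had no call in irradiated wild type. Hspa8, the constitutive cytosolic HSP70, gave 11147.2, then 7683.5 and 6808.9, and 10341.4 and 11867.4, and its normalized log2 difference in irradiated wild type was -0.18 (adjusted p = 0.496). Hspa9, the mitochondrial HSP70, lay between 3286.0 and 3871.2 on all 5 arrays. Hspa1a, the stress-induced HSP70, was dim, at 125.6 without irradiation, 175.0 and 167.7 in irradiated wild type, and 155.7 and 146.5 with TRAF6 null. All 4 irradiated arrays are above the unirradiated one, and the log2 difference of 0.84 ± 0.24 SE in wild type missed the threshold (adjusted p = 0.0501). Hspa1a passed the filter through the irradiated groups alone, where it is high, so these values are a description. Its near-identical copy Hspa1b lay between 115.9 and 120.8 on all arrays, and signals of such copies cannot be assigned with certainty. Hspa5, the HSP70 of the ER, was near background, between 116.9 and 149.0. Hspa2, a form known from testis, lay between 181.7 and 212.2. Hspa12b, a distant HSP70 relative known from endothelium, was not above background without irradiation (121.2) and gave 156.0 and 146.8 in irradiated wild type, at least 1.46-fold higher. That value is a description, since the filter used this group, and it fell to a log2 difference of 0.04 with another estimate of the background. Hspa4l, of the HSP110 family, lay between 120.3 and 155.6 with no call in any comparison.

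Among J proteins the largest rise was that of Dnajb2, which binds ubiquitin and guides clients of HSP70 to the proteasome. It gave 349.1 without irradiation, 862.5 and 783.1 in irradiated wild type, and 272.8 and 322.8 with TRAF6 null. It rose 2.73-fold in irradiated wild type (log2 difference 1.45 ± 0.19 SE, adjusted p = 0.00948), and the TRAF6 null arrays lie below the unirradiated one. Dnajc16 gave 218.5, then 427.8 and 434.7, and 314.1 and 373.8, and rose by 1.21 ± 0.20 (SE, log2, adjusted p = 0.0140), or by 0.38 with neqc's own estimate of the background. Dnajc19, a J protein of the mitochondrial import motor, gave 1679.5, then 747.7 and 702.6, and 1446.4 and 1358.1, and fell by 1.27 ± 0.19 (SE, log2, adjusted p = 0.0114). Only the irradiated wild-type arrays are low. Dnajb6, a suppressor of protein aggregation whose promoter is printed above, gave 1077.6, then 620.9 and 656.4, and 977.1 and 1130.4, and fell by 0.83 ± 0.20 (SE, log2, adjusted p = 0.0345). Dnajb1, the main partner of stress-induced HSP70, gave 4176.5, then 3469.6 and 2861.2, and 2593.2 and 2544.8, and had no call in any comparison. The other J proteins tested had no call in irradiated wild type. Among them Dnajb11, a BiP partner of the ER, gave 1824.0, then 1715.2 and 1694.0, and 1396.3 and 1197.5, with the TRAF6 null arrays lowest. Dnajc5, the cysteine string protein of vesicles, gave 1325.1, then 1962.2 and 1778.3, and 1961.8 and 1822.0, with the unirradiated array lowest. Neither was called in any comparison.

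**Figure D2:**
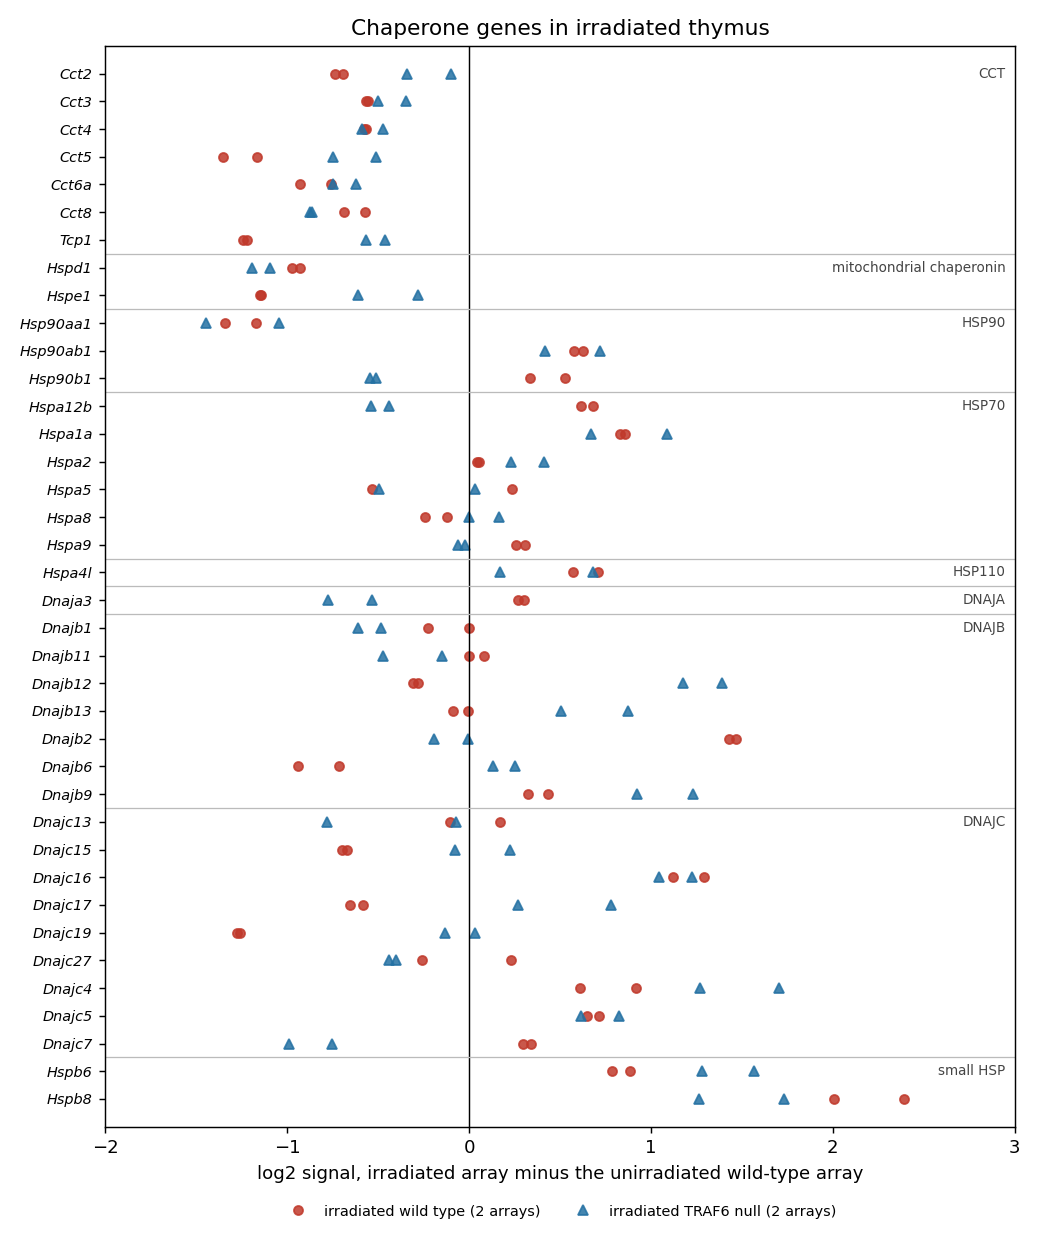
Normalized log2 signal of the 38 members tested on each irradiated thymus array minus that on the unirradiated wild-type array, by family; circles are the 2 irradiated wild-type arrays and triangles the 2 arrays labelled TRAF6 null. All 7 TRiC subunits lie left of 0 on all 4 irradiated arrays, as do 28.1% of all rows tested. Hspb8 lies farthest right, and Dnajb2, Dnajb12, Dnajb6, Dnajc7 and Dnajc19 are split by label.

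Markers of cell types moved with irradiation. They are counted here and below by rows tested, and a gene can have more than 1 row. All 15 tested markers of replicating cells fell in irradiated wild type (median log2 difference -2.97), with a summed signal of 32982.7 without irradiation and 6289.8 and 6246.4 with it. Of 10 markers of double-positive thymocytes, the main cell of the thymus, 4 fell and 1 rose (median -1.27), and Cd8a of this list was at background on all arrays. Of 10 macrophage markers 9 rose (median 1.40). Of 8 markers of medullary epithelium 6 rose (median 1.68), with a summed signal of 8826.9 without irradiation and 23524.7 and 23459.1 with it, and of 6 erythroid markers 3 fell (median -1.36). The medullary markers, like Dnajb2 and Cryab, were high in irradiated wild type and low with TRAF6 null. In RNA of a whole tissue, fewer cells of a type and less RNA per cell cannot be told apart, and the part of these shifts in the chaperone values was not tested.

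TRAF6 null and wild type were next compared within irradiated thymus. Of the 38 members, 11 were called higher (28.9%) and 5 lower (13.2%), beside 20.8% and 22.9% of all rows. The median of members was 0.04 (-0.18 in the authors' matrix) and that of all rows -0.03. The split depends on scaling and on the background step. It was 7 higher and 5 lower with median scaling, and 6 higher and 8 lower in the authors' matrix, where the median of all rows was -0.19 and -0.28. With neqc's own estimate of the background it was 5 and 5, and without background correction 9 and 7. Without replicate 1 or 2 of irradiated wild type 2 and 0 members passed (9 and 12 at an unadjusted p under 0.05), and far fewer rows in all, 494 higher and 649 lower and 235 higher and 385 lower. This comparison and the first share the irradiated wild-type arrays, with opposite signs.

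Dnajb12, a J protein of the ER membrane that recruits cytosolic HSP70, had the largest difference among members called higher with TRAF6 null. It gave 205.0 and 190.8 in irradiated wild type and 339.7 and 329.5 with TRAF6 null, against 201.0 without irradiation. The difference was 2.98-fold (log2 1.58 ± 0.16 SE, adjusted p = 0.00428), and only the TRAF6 null arrays are high. Its signal is close to background, and with neqc's own estimate of the background the log2 difference was 0.40, so that its rank depends on this step. Dnajc19 was higher by 1.22 ± 0.16 and Dnajb6 by 1.02 ± 0.17 (SE, log2, adjusted p = 0.00602 and 0.0102), both near the unirradiated wild-type array. Without an unirradiated TRAF6 null array, a difference present before irradiation and a differing answer to it cannot be told apart. Dnajc17 gave 143.5 and 136.1 against 187.8 and 167.4, a log2 difference of 1.14 ± 0.22 SE (adjusted p = 0.0150), which was 0.11, with no call, under the same change. Dnajc15, a relative of Dnajc19 in the mitochondrial inner membrane, gave 1587.5 and 1515.4 against 2186.6 and 2955.2, with 2751.1 without irradiation, and was higher by 0.76 ± 0.17 (SE, log2, adjusted p = 0.0239). The other members called higher were Dnajb13 (log2 difference 0.74), Tcp1 (0.72), Hspe1 (0.70), Dnajb9 (0.70), Cct5 (0.63) and Hspb6 (0.59). All 6 except Tcp1 lost the call in the authors' matrix, where Cct5 was at -0.01, Dnajb13 at 0.05, Hspb6 at 0.18, Dnajb9 at 0.21 and Hspe1 at 0.31. The same 5 lost it with median scaling.

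Dnajb2 was 2.93-fold lower with TRAF6 null than in irradiated wild type (log2 difference -1.55 ± 0.16 SE, adjusted p = 0.00422). Dnajc7, which binds both HSP70 and HSP90, gave 1176.2 and 1134.3 in irradiated wild type and 513.3 and 479.0 with TRAF6 null, against 993.2 without irradiation, a log2 difference of -1.19 ± 0.17 SE (adjusted p = 0.00699). Only the TRAF6 null arrays are low. Hsp90b1, which folds Toll-like receptors and integrins in the ER, differed by -0.96 ± 0.16 (SE, log2, adjusted p = 0.0103). Dnaja3, a mitochondrial J protein, gave 556.8 and 522.6 against 251.7 and 305.4, with 443.7 without irradiation, a log2 difference of -0.94 ± 0.17 SE (adjusted p = 0.0119). Hspa12b, at 108.0 and 106.8, was not above background with TRAF6 null and was at least 1.32-fold lower, again a description, since it passed the filter through irradiated wild type alone. Hspb8 was not called here (log2 difference -0.70, adjusted p = 0.0708), nor were Hspd1 (-0.20, adjusted p = 0.332) and Hsp90aa1 (0.01, adjusted p = 0.973).

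Other cells differed in the same comparison. All 8 tested rows of medullary epithelium markers were lower with TRAF6 null (median log2 difference -3.35). Summed signals were 23524.7 and 23459.1 in irradiated wild type and 3544.8 and 8195.0 with TRAF6 null. The list holds 8 genes in 10 rows, and a row of Epcam and a row of Cd40 were at background. Of 15 markers of replicating cells 11 were higher (median 1.17), of 5 fibroblast markers 4 were higher and 1 lower, all 3 adipocyte markers tested were higher (Fabp4, Plin1 and Lep were at background), and of 6 neutrophil markers 4 were higher. Of 6 erythroid markers 3 were higher. Their part in the chaperone values was not tested.

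Irradiated TRAF6 null thymus against unirradiated wild type is the sum of the first 2 comparisons and shares arrays with both. There 6 members were called higher (15.8%) and 4 lower (10.5%), beside 13.6% and 15.0% of all rows, and the median was -0.16 against -0.03, the latter -0.13 with median scaling. The authors' matrix gave 6 higher and 8 lower. Without replicate 1 or 2 of irradiated wild type no member passed (11 and 11 at an unadjusted p under 0.05), with 446 rows higher and 433 lower in all, and without replicate 2 of TRAF6 null 18 passed. The higher members were Hspb8 (log2 difference 1.496), Dnajc4 (1.49), Hspb6 (1.42), Dnajb12 (1.28), Dnajc16 (1.13) and Dnajb9 (1.08). Dnajc4 gave 205.7 without irradiation, 306.9 and 331.8 in irradiated wild type, and 421.9 and 356.0 with TRAF6 null. Dnajb9, an ER J protein that acts on BiP, gave 329.1, then 458.5 and 402.7, and 471.6 and 612.5. For both genes all irradiated arrays exceed the unirradiated one. The lower members were Hsp90aa1 (-1.25), Hspd1 (-1.15), Dnajc7 (-0.87) and Cct8 (-0.87), the last at 2858.9 and 3094.3 with TRAF6 null. Dnajc4 and Dnajc16 lost the call with neqc's own estimate of the background (0.49 and 0.35), as did Dnajb9 (0.63). Hspb8 and Hspb6 lost it there too, so that Dnajb12 alone of the higher members kept it. Hspb8 also lost it with no filter on dim rows. Hspb6 was the 1 member called in all 3 comparisons, although its call between the irradiated groups was lost in 9 of 13 alternatives, and 14 members were called in none. In the same comparison all 15 markers of replicating cells were lower (median -1.68), 7 of 10 of double-positive thymocytes lower (-1.79), 8 of 10 of macrophages higher (1.89), 5 of 8 of medullary epithelium lower (-1.38) and 4 of 5 of fibroblasts higher (1.93), and their part in the chaperone values was not tested.

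Genes that work with the members were described from 5 lists. In irradiated wild type the HSP70 and HSP90 co-chaperones held 4 rises and 5 falls among 24 rows tested, prefoldin and the helpers of TRiC 0 and 5 among 12, mitochondrial chaperones and proteases 1 and 4 among 10, ER chaperones and the unfolded protein response 4 and 1 among 16, and heat shock factors and regulators 0 and 1 among 2. Of all rows 18.6% rose and 17.5% fell, and the co-chaperone counts are near that. Cryab, a small heat shock protein named outside the rule, was counted in the co-chaperone list. It gave 155.4 without irradiation, 523.5 and 542.2 in irradiated wild type, and 178.9 and 193.7 with TRAF6 null. It rose 5.82-fold in irradiated wild type (log2 difference 2.54 ± 0.20 SE, adjusted p = 0.00594), and only those 2 arrays are high. Bag3, the partner of Hspb8, gave 438.6, then 1277.6 and 1243.3, and 894.7 and 791.9, a rise of 1.77 ± 0.22 (SE, log2, adjusted p = 0.00853). Serpinh1, the collagen chaperone of the ER, rose by 1.62, and Syvn1, a ubiquitin ligase of ER-associated degradation, by 1.49 on the log2 scale. The largest falls were those of Yme1l1, a mitochondrial inner membrane protease (-2.04), Pdcl, a phosducin-like partner of TRiC (-2.03), Ppid, an HSP90-bound prolyl isomerase (-1.64), and Uri1, a prefoldin-like protein (-1.29). Hsf2 fell by 0.83 (log2, adjusted p = 0.0420). Hsf1 was not tested, since its detection p was under 0.01 on fewer than 2 arrays, and gave signals of 540.5, then 742.0 and 773.8, and 474.5 and 357.7.

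With TRAF6 null against irradiated wild type, prefoldin and TRiC helpers were called higher in 5 rows of 12 and lower in 0, mitochondrial chaperones and proteases in 3 and 1 of 10, co-chaperones in 4 and 6 of 24, and ER genes in 4 and 4 of 16, beside 20.8% and 22.9% of all rows. The split of members in this comparison depended on scaling and the background step, as above. Neither of the 2 heat shock regulators tested was called. Cryab differed by -1.85, Serpinh1 by -1.66, Chordc1, an HSP90 co-chaperone, by -1.599 and Htra2, a mitochondrial protease, by -1.56 (log2). Sgtb (at least 2.21-fold higher), Clpx (log2 difference 1.37) and Uri1 (1.26) led the other direction. Stub1, the ubiquitin ligase of HSP70 clients, has 2 rows that disagree, at 1.26 in the row listed under an older name and at -1.16 in the other. Against unirradiated wild type, Fkbp4, an HSP90-bound immunophilin, differed most, at 2992.0 without irradiation, 1304.7 and 1269.3 in irradiated wild type, and 463.7 and 509.5 with TRAF6 null (log2 difference -2.51 ± 0.18 SE, adjusted p = 0.00745). Chordc1 (-2.04), Ppid (-1.78) and Yme1l1 (-1.54) followed, and Sil1 (1.78), Sel1l (1.44 in 1 row, and at least 1.955-fold higher in the other, which was not above background without irradiation), the Stub1 row under the older name (1.49, the other at 0.12) and Bag3 (1.29) led the higher side. The 3 groups do not overlap for Fkbp4.

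In H1299 cells each group was 1 array, so differences have no replicate check and no test, and 1.5-fold serves as a threshold of size. The error given is the bead standard error within the arrays. It was taken on log2 of the signal before background correction, so it is too small for dim genes. Of the 60 members, 50 were detected on all 3 arrays. CDKN1A, a p53 target, stood at 3369.5 with vector, 21026.7 with p53 wild type and 12992.1 with K24R, and MDM2, another target, was at least 1.92-fold and 2.03-fold higher. All 3 comparisons share arrays.

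With p53 wild type against vector, 3 members were higher by 1.5-fold or more in the fitted values (5%) and 5 lower (8.33%), beside 9.24% and 11.4% of all 12602 genes. Fitted values of genes not above background on 1 array overstate what is shown: with such genes at their bound 3 were higher and 3 lower (5% and 5%), beside 6.57% and 6.95%. The median log2 difference was -0.05 for members and -0.01 for all genes. Median scaling gave 2 higher and 9 lower and the authors' matrix 1 and 3. Of the HSP110 genes, the nucleotide exchange factors of HSP70, HSPH1 and HSPA4 were lower with p53 wild type. HSPH1 gave 774.2 with vector, 433.2 with p53 wild type and 680.1 with K24R, a log2 difference of -0.92 ± 0.09 (bead SE) for p53 wild type and -0.17 for K24R. HSPA4 gave 1167.4, 701.5 and 992.8, with -0.78 and -0.21, and its second probe -0.66 and -0.02. HSPA4L gave 138.8, 113.8 and 133.4, the middle value not above background, and a lower level is not shown for it. For HSPH1 and HSPA4 the p53 wild-type array is the lowest and the K24R array lies between it and vector.

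DNAJC10, a disulfide reductase of the ER, gave 229.2, 153.3 and 178.8, a log2 difference of -1.05 with p53 wild type and -0.63 with K24R. DNAJC25 gave 157.0, 123.1 and 146.2, at least 1.35-fold lower with p53 wild type, where it was not above background. DNAJC22 was at least 1.57-fold higher with p53 wild type (129.2, 154.3 and 138.8). HSPBL2, named here as on the array, was at 683.8, 967.7 and 709.3, a log2 difference of 0.60. HSPBL2, HSPBP1 and HSPBAP1 match the rule by prefix and were classed apart from the small heat shock proteins, and what HSPBL2 is was not looked up. HSPA1B, the stress-induced HSP70, gave 2492.4, 4361.4 and 4140.3, with log2 differences of 0.79 ± 0.09 and 0.81 ± 0.07 (bead SE). Its near-identical copy HSPA1A gave 2018.3, 2922.4 and 3004.1, with 0.52 and 0.64. Vector is the lowest array for both copies, whose signals cannot be assigned with certainty.

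Of the 9 TRiC genes, counting the pseudogene CCT6P1, whose sequence resembles CCT6A, 7 were below 0 with p53 wild type and none reached 1.5-fold (-0.53 to 0.07). TCP1 gave 2620.3, 1878.6 and 2962.1 (log2 difference -0.53), CCT2 3182.3, 2559.5 and 3133.6, CCT8 3228.4, 2607.0 and 3480.9, and CCT7 10180.0, 10523.5 and 10283.2. TCP1, CCT2 and CCT8 were lowest with p53 wild type, and CCT7 stayed within 0.05 of vector. HSPD1 gave 8518.7, 6836.8 and 8974.9 (-0.38) and HSPE1 3656.8, 2765.2 and 3557.1 (-0.45), but the second HSPE1 probe was at 0.33. HSP90AA1 gave 12208.7, 8475.9 and 13072.2 (-0.57), with its other probes at -0.91 and 0.21. HSP90B1 gave 2748.9, 2047.6 and 2550.9 (-0.49), and HSP90AB1 6012.8, 6019.4 and 7083.0 (-0.04). Among members with several passing probes, 17 in all, DNAJB12 disagreed most in this comparison, from -0.44 to 0.73. HSPA8 (14069.2, 12683.1 and 13723.0), HSPA9 (1610.3, 1566.0 and 2006.7), HSPA5 (282.7, 254.2 and 288.6), HSPB1 (8786.7, 11154.1 and 9785.1), DNAJA1 (2511.9, 2388.5 and 2587.4) and DNAJB1 (1735.3, 1641.1 and 1726.5) differed by less than 1.5-fold in all comparisons.

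**Figure D3:**
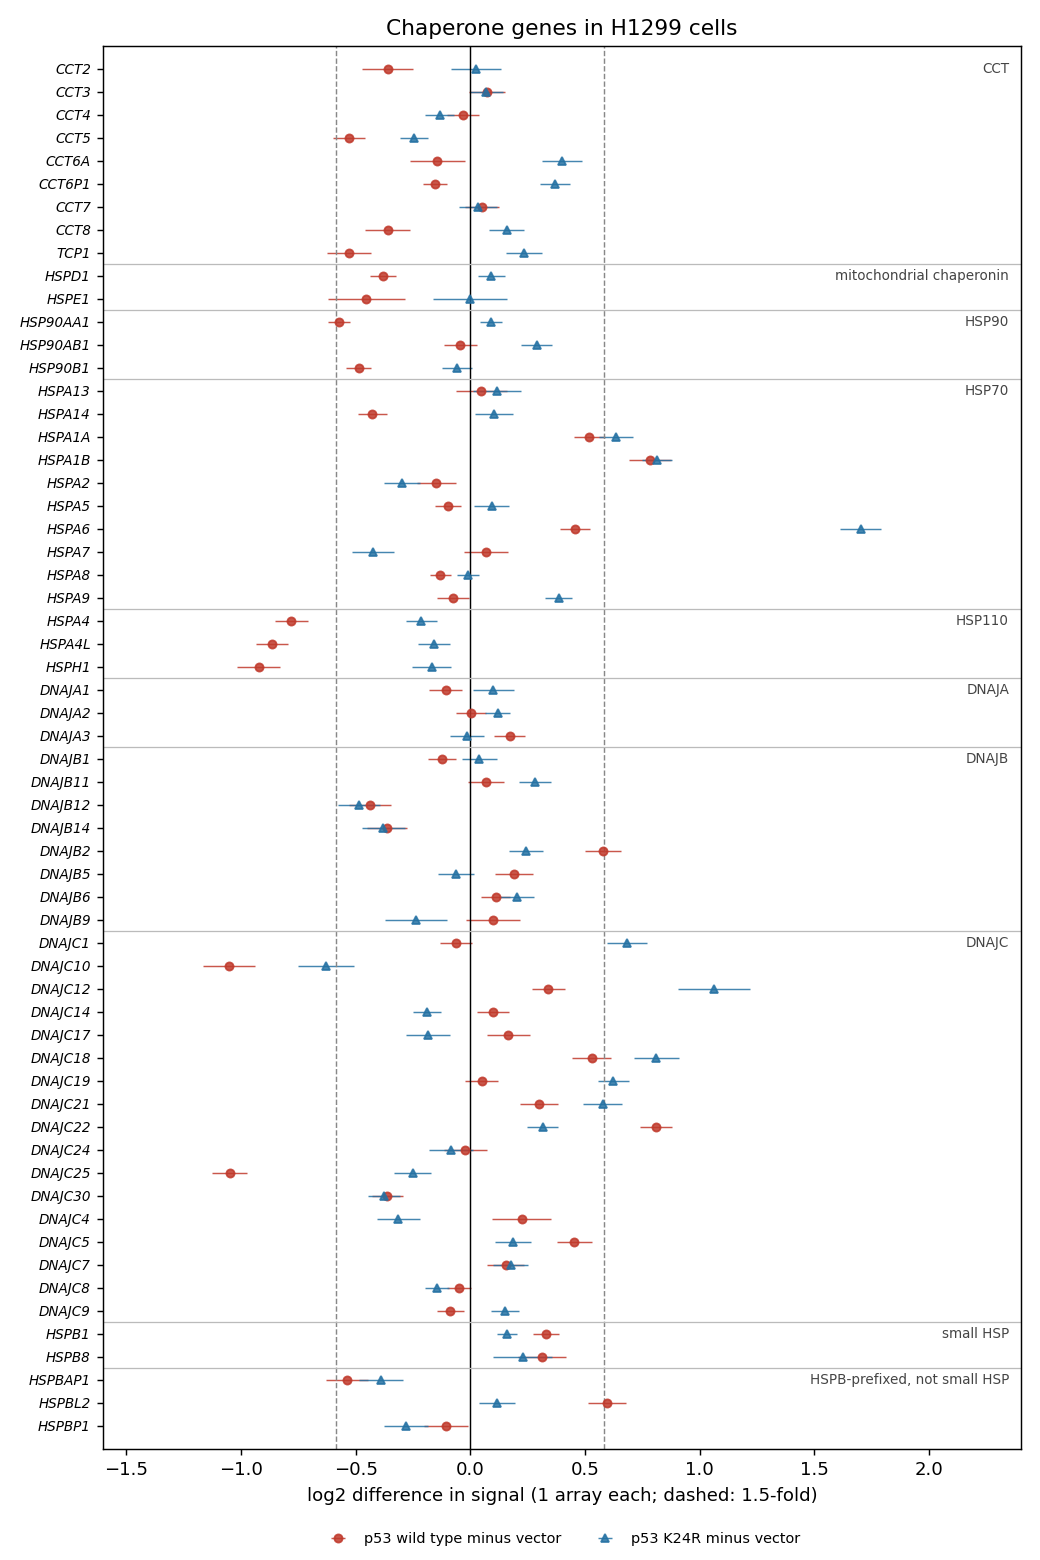
Log2 difference in signal of the 60 members in H1299 cells, p53 wild type minus vector (circles) and p53 K24R minus vector (triangles), by family. Bars are bead standard errors within the arrays, taken on log2 of the uncorrected signal and so too short for dim genes. Dashed lines mark 1.5-fold, and dim genes are drawn at their fitted value. HSPH1 and HSPA4 lie left of the 1.5-fold line with p53 wild type alone (HSPA4L is a fitted value of a signal not above background there). HSPA6, detected on the K24R array alone, lies farthest right, with K24R.

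With K24R against vector, 7 members were higher by 1.5-fold or more in the fitted values (11.7%) and 1 lower (1.67%), beside 6.83% and 5.86% of all genes, with medians of 0.09 and -0.01. With dim genes at their bound, 4 were shown to be higher (6.67%), HSPA6, HSPA1A, HSPA1B and DNAJC18, and 1 lower, DNAJC10, beside 3.79% and 3.28%. The authors' matrix gave 2 higher and 0 lower. HSPA6, a strictly stress-induced human HSP70, gave 108.9 with vector, 126.4 with p53 wild type and 171.6 with K24R, and was above background on the K24R array alone, at least 1.90-fold higher than with vector. DNAJC12 was detected on the same array alone (119.4, 130.9 and 155.4), at least 1.49-fold higher. DNAJC1 and DNAJC19 were so as well, at least 1.32-fold and 1.36-fold higher. HSPA6, DNAJC12, DNAJC1 and DNAJC19 are thus members through the K24R array alone, the array where they are high. Their rises, also within the counts above, are a description. DNAJC18 gave 245.5, 292.9 and 349.3, a log2 difference of 0.81. The last lies above background on all 3 arrays and is highest with K24R. Among members with several passing probes, only the second probes of HSPE1 and CCT6A passed 1.5-fold here. They were at 0.69 and 0.62, where the brightest probes were at 0 and 0.40.

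With K24R against p53 wild type, 8 members were higher by 1.5-fold or more in the fitted values (13.3%) and 0 lower, beside 9.95% and 8.17% of all genes, with medians of 0.13 and 0.02. With dim genes at their bound, 4 were shown to be higher (6.67%) and 0 lower, beside 5.71% and 6.11%. They were HSPA6 (at least 1.68-fold), TCP1 (log2 difference 0.76), HSPH1 (0.75) and HSP90AA1 (0.66). DNAJC12, DNAJC1 and DNAJC25, not above background with p53 wild type, were at least 1.32-fold, 1.17-fold and 1.13-fold higher, and HSPA4L has no bound. HSPA6, DNAJC12 and DNAJC1 are members through the K24R array alone, so their values here are a description too. For TCP1 the 3 probes gave 0.76, 0.58 and 0.27, and for HSP90AA1 0.66, 0.71 and -0.06, the last not above background with p53 wild type. Second probes of HSPA4 (0.64), HSPD1 (0.70) and DNAJB14 (0.81, a fitted value without a bound) passed 1.5-fold, where the brightest were at 0.57, 0.47 and -0.02. HSPH1, TCP1 and HSP90AA1 were lowest with p53 wild type, and that array also enters the comparison of p53 wild type with vector.

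Of the other chaperone genes in H1299, with dim genes at their bound, 2 co-chaperones of 21 were higher and 2 lower with p53 wild type, 1 of 20 ER genes was higher and 0 lower, 1 of 3 heat shock regulators was lower, and none of 16 prefoldin and TRiC helpers or 11 mitochondrial genes reached 1.5-fold, beside the 6.57% and 6.95% of all genes given above. CRYAB, a small heat shock protein, is counted in the co-chaperone list here too. It was not above background with vector (108.2) and gave 474.2 with p53 wild type and 296.8 with K24R, at least 9.62-fold and 4.98-fold higher. BAG5, a nucleotide exchange factor of HSP70, gave 547.4, 252.7 and 440.5 (log2 difference -1.40 with p53 wild type and -0.36 with K24R). CHORDC1 was at least 1.88-fold lower and TXNDC9 at least 1.29-fold lower with p53 wild type, and UNC45A, a myosin chaperone, was higher by 0.90 and DDIT3 of the unfolded protein response by 0.84. HSF1 differed by 0.36 and 0.04 and HSF2 by -0.62 and -0.19. With K24R against vector 1 co-chaperone was higher (CRYAB) and 1 lower (PPID, at -0.75), and none in the other lists, beside 3.79% and 3.28% of all genes. Against p53 wild type 3 co-chaperones were higher and 2 lower, and of ER genes 0 and 3, with none in the other lists, beside 5.71% and 6.11%. There BAG5 was at 1.04, PTGES3 at 0.85 and CHORDC1 at least 1.59-fold higher. CRYAB was at -0.95, SIL1 at -0.79, DDIT3 at -0.72 and PPID at -0.69.

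**Figure D4:**
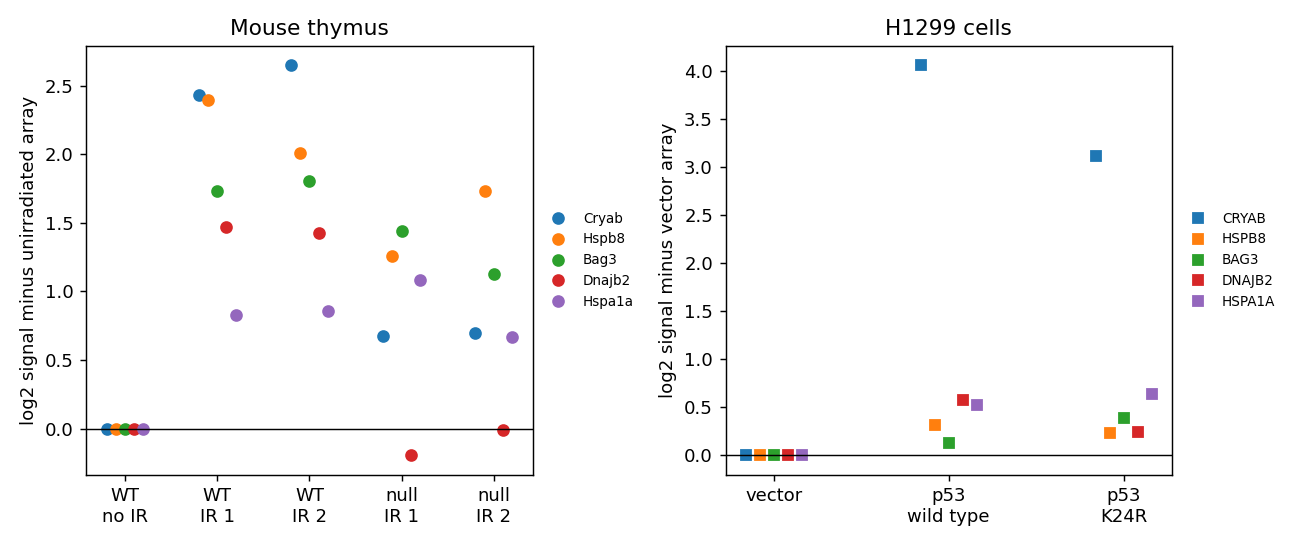
Log2 signal of Cryab, Hspb8, Bag3, Dnajb2 and Hspa1a on each thymus array minus the unirradiated array (left) and on each H1299 array minus the vector array (right), 1 point per array. Cryab, Bag3, Hspb8 and Dnajb2 are higher on both irradiated wild-type arrays, and CRYAB, which is not above background with vector, stands apart in H1299.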

How the data were processed

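RNA from mouse thymus and H1299 cells was measured on Illumina bead arrays. Per the file headers, each deposited table gives, for every array, an intensity (average over beads, linear scale), a detection p-value, the number of beads and their standard error. The mouse table has 1 row per symbol, its detection p-values apparently averaged over probes. The authors' series matrix holds the same signals multiplied by 1 constant per array. Median bead standard errors were 3.23% to 3.48% (mouse) and 3.94% to 3.99% (human) of the signal, and precision is limited by how few arrays there are.

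Signals were corrected with neqc (limma 3.58.1, R 4.3.3, offset 16), quantile-normalized and taken to log2 by species. For mouse the negative controls' mean and SD were estimated from signals at detection p-values between 0.02 and 0.98. Mouse differences were tested with limma on all 5 arrays (2 residual and 2.88 prior degrees of freedom, two-sided, Benjamini-Hochberg), the single unirradiated array being assumed to vary like the others. Human genes were represented by their brightest probe with a detection p under 0.01 on any array, 15569 probes of 12602 genes. A gene not above background in a group (mouse, under the 99th percentile of negative controls, 122.2 to 128.1) has only a bound there, printed as "at least". The function was tested on simulated data. All 45 mouse member names matched a current symbol.

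Members and lists were chosen with earlier results of these data known. Values are given for the core members, the 10 called members of largest difference per mouse comparison, up to 8 past 1.5-fold per H1299 comparison, and up to 4 other chaperone genes per direction. What the replicate numbers stand for is not stated. Deviations of same-numbered irradiated arrays correlated at 0.0318 over 11563 rows, which cannot show what these arrays share. Alternatives covered background, offset, scaling, filters, probes, single arrays and the replicate block. Promoters came from RefSeq, GRCm38.p6. The result of 1 label check in H1299 is not reported here.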

Additional observations from a re-analysis of the deposited data

Results flagged for a closer look

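Rows named by the rule that missed the detection limit on every mouse array, and so entered no comparison, included 9 whose signal was above the 99th percentile of the negative controls on all 5 arrays. Their mean signals over the 5 arrays were 656.3 for Dnajc10, 558.6 for Dnajc2, 468.7 for Dnajc30, 261.5 for Dnajc3, 186.0 for Hspbap1, 181.0 for Dnaja2, 176.7 for Dnajc12, 158.6 for Hspa4 and 156.9 for Dnajc1. Dnajc10 gave 1019.3 without irradiation, 747.3 and 695.3 in irradiated wild type, and 376.1 and 443.3 with TRAF6 null. Its detection p was 0.0475 at the lowest. No group held 4 or more arrays, so no search for single outlying arrays was made.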

How the results depend on the processing

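In mouse, members called numbered 14, 16 and 10 in irradiated wild type against unirradiated, TRAF6 null against irradiated wild type, and TRAF6 null against unirradiated. Leaving out single arrays gave 0 to 24, 0 to 18 and 0 to 18, the lowest without an irradiated wild-type array. neqc's own inference gave 10 in the second. The median of members was -0.03, 0.04 and -0.16 and moved in the first and last comparison to -0.0025 and -0.0242 with neqc's own inference, -0.0131 and -0.0759 without background correction, -0.0178 and -0.107 with an offset of 50, -0.0512 and -0.262 with median scaling, -0.0481 and -0.101 with rows detected on 1 array or with no filter, and -0.111 and -0.101 with rows detected on all 5 arrays, where the second was at 0.138. In the authors' matrix the medians were 0.181, -0.175 and -0.101, and Cct5 reversed in the second (-0.0097); the cause was not tested. Without single arrays the medians ranged from -0.0316 to -0.0043, from 0.0395 to 0.11 and from -0.16 to -0.0674. In the replicate block, arrays were grouped by replicate number, and the unirradiated array fell in with replicate 1 of both irradiated groups. The block gave 9 calls and a median of -0.0985 in the first comparison, with 14 and 7 calls in the others. In H1299, members past 1.5-fold numbered 8, 8 and 8 (p53 wild type and K24R against vector, K24R against p53 wild type). They numbered 3, 3 and 3 without background correction, 4, 5 and 4 with an offset of 50, 4, 2 and 3 in the authors' matrix, 5, 4 and 3 with detection on all 3 arrays, 2, 2 and 1 at 2-fold, and 13 in the last with median scaling. With dim genes at their bound, a rule chosen after seeing the data, they numbered 6, 5 and 4, by construction fewer. Signals close to background limit what these counts can show.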

Other observations

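Hspb1, the small heat shock protein HSP27, was outside the members in mouse, with a lowest detection p of 0.0351. Its signal was 118.9 without irradiation, 256.8 and 245.1 in irradiated wild type, and 248.4 and 304.5 with TRAF6 null, so that the 4 irradiated arrays exceed the unirradiated one. Dnaja1 was at background on all 5 arrays. Among the members detected on a single array and not tested, Dnajc6, the auxilin of clathrin uncoating, gave 1118.9, then 614.2 and 462.7, and 458.5 and 393.7, with the unirradiated array highest. Dnajc8, a splicing factor with a J domain, gave 746.0, then 406.1 and 351.8, and 680.7 and 640.3, with the irradiated wild-type arrays lowest.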
